A study of Mus musculus with 6 samples.

Results

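The genes described here control how a T cell passes from the G1 phase of the cell cycle into DNA synthesis. They are 10 of the 10041 rows of a gene expression table of mouse Th17 cultures, chosen by gene symbol, and each symbol matched exactly 1 row of its own. They comprise the D cyclins Ccnd2 and Ccnd3, their kinases Cdk4 and Cdk6, the E cyclins Ccne1 and Ccne2 with their kinase Cdk2, the kinase inhibitor Cdkn1b, the pocket protein Rb1 and the transcription factor E2f1. The cultures of interest received oligomycin at 2.5 ng/ml, an inhibitor of the ATP synthase that stops oxidative phosphorylation in mitochondria, and their controls received DMSO as vehicle, with 3 libraries in each group. Naive mouse CD4 T cells were the starting material of both groups and were held for 48 h on plate-bound anti-CD3e (10 µg/ml) and anti-CD28 (1 µg/ml). Both received the Th17 cytokines IL-23 at 10 ng/ml, IL-6 at 20 ng/ml and TGFb1 at 2.5 ng/ml. Strain, genotype, sex and age are not given in the labels. The comparison asks how Th17 gene expression depends on mitochondrial oxidative phosphorylation.

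A resting T cell sits outside the cycle with its retinoblastoma protein, the product of Rb1, bound to E2F factors. Signals from the T cell receptor and from IL-2 induce D cyclins, which activate CDK4 and CDK6, and these kinases begin to phosphorylate the retinoblastoma protein. Released E2F factors then switch on E cyclins, whose kinase CDK2 completes that phosphorylation, so that entry into S phase no longer needs outside signals, a commitment called the restriction point. p27, the product of Cdkn1b, inhibits cyclin E-CDK2 and is abundant in quiescent lymphocytes. The amount of these proteins is also set by their degradation and phosphorylation, which mRNA levels do not show.

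Expression is given as FPKM, fragment numbers adjusted for library size and divided by transcript length, so levels of different genes can be set side by side. The depth behind the values is unknown. They are relative to the other RNA of a library and are not amounts per cell. In such bulk samples fewer cells in a state and less RNA per cell cannot be told apart. The FPKM sum of all rows was 1.86e+06 to 2.10e+06 in the oligomycin libraries and 1.43e+06 to 1.92e+06 in the DMSO libraries. Small RNA rows took 80.2% to 82.2% of the FPKM sum in the oligomycin libraries and 71.2% to 78.0% in the DMSO libraries, and their part in the results was not tested beyond the rescaling described in the closing section. All 8 T cell markers of a list were present, and 2 of them fell, 0 rose and 6 were not called. The share that fell was 25%, beside 16.1% of all tested genes that fell and 14% that rose. Cd2, an adhesion receptor gene, fell with a log2 change of -0.62 (adjusted p = 0.0126), a call lost without DMSO replicate 2 (0.0501) or oligomycin replicate 3 (0.0531). Cd28, the costimulatory receptor gene, fell with a log2 change of -0.53 (adjusted p = 0.0422), a call lost under 3 other scalings and without any 1 library other than DMSO replicate 2 and oligomycin replicate 3. Cd4 stood at 88.5 ± 14.5 FPKM with oligomycin and 99.8 ± 8.94 with DMSO (adjusted p = 0.384). The Th17 cytokine gene Il17a averaged 12.5 ± 2.45 FPKM with oligomycin and 247 ± 15.4 with DMSO (SD, n = 3 each). Of 31 markers of CD8 T, B, myeloid, dendritic, NK and erythroid cells or platelets, 3 had a row (Cd8b1, Cd68 and Klrd1), and the other 28 are not analysed here. Klrd1, an NK receptor chain, had 5.53, 23.8 and 19.6 FPKM with oligomycin and 12.8, 34.6 and 31.2 with DMSO, and was not called (adjusted p = 0.300). Cd68, a myeloid marker, had 2.45, 5.07 and 2.39 FPKM with oligomycin and 1.147, 1.08 and 2.07 with DMSO, so the groups did not overlap. Its log2 change of 0.79 just missed the threshold (adjusted p = 0.0532) and passed it under 4 alternatives. Cd8b1, a CD8 chain, stood at 2.90 ± 0.453 FPKM with oligomycin and 2.83 ± 0.257 with DMSO (adjusted p = 0.927). The part of other cells in the results was not tested.

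The test was run with limma on log2(FPKM + 1) across 9986 genes, and a gene was called where its Benjamini-Hochberg adjusted p lay under 0.05. Errors of means are SD over 3 libraries and errors of log2 changes are SE. Nothing says that the libraries came from separate animals or cultures, so p-values measure only the spread between these libraries, which may be technical. Library numbers below are those of the deposited columns.

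Of the 10 genes, 4 fell with oligomycin (Ccnd3, Ccne1, Ccne2 and Cdk2), 0 rose and 6 were not called. Among all tested genes 30.2% were called, 16.1% lower and 14% higher. The log2 changes of the 10 genes had a median of -0.48, beside a median of 0.00 over all tested genes, and ran from -0.94 (Ccne2) to 0.41 (Cdkn1b). In 6 of the 10 genes every oligomycin library lay below every DMSO library, which held for 24.3% of all tested genes, and in 0 of them did every oligomycin library lie above, which held for 23.1%. Without oligomycin replicate 1, 6 of the genes were called lower and 1 higher, where 18.8% and 14.0% of all genes were. Without DMSO replicate 1 or 3 the share of all genes called was 19.1% and 17.9%, and without DMSO replicate 2 the share called lower was 10.5%. Of the genes called, 46.6% were higher, and 59.9% were when libraries were scaled to equal sums without small RNA rows.

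**Figure D1:**
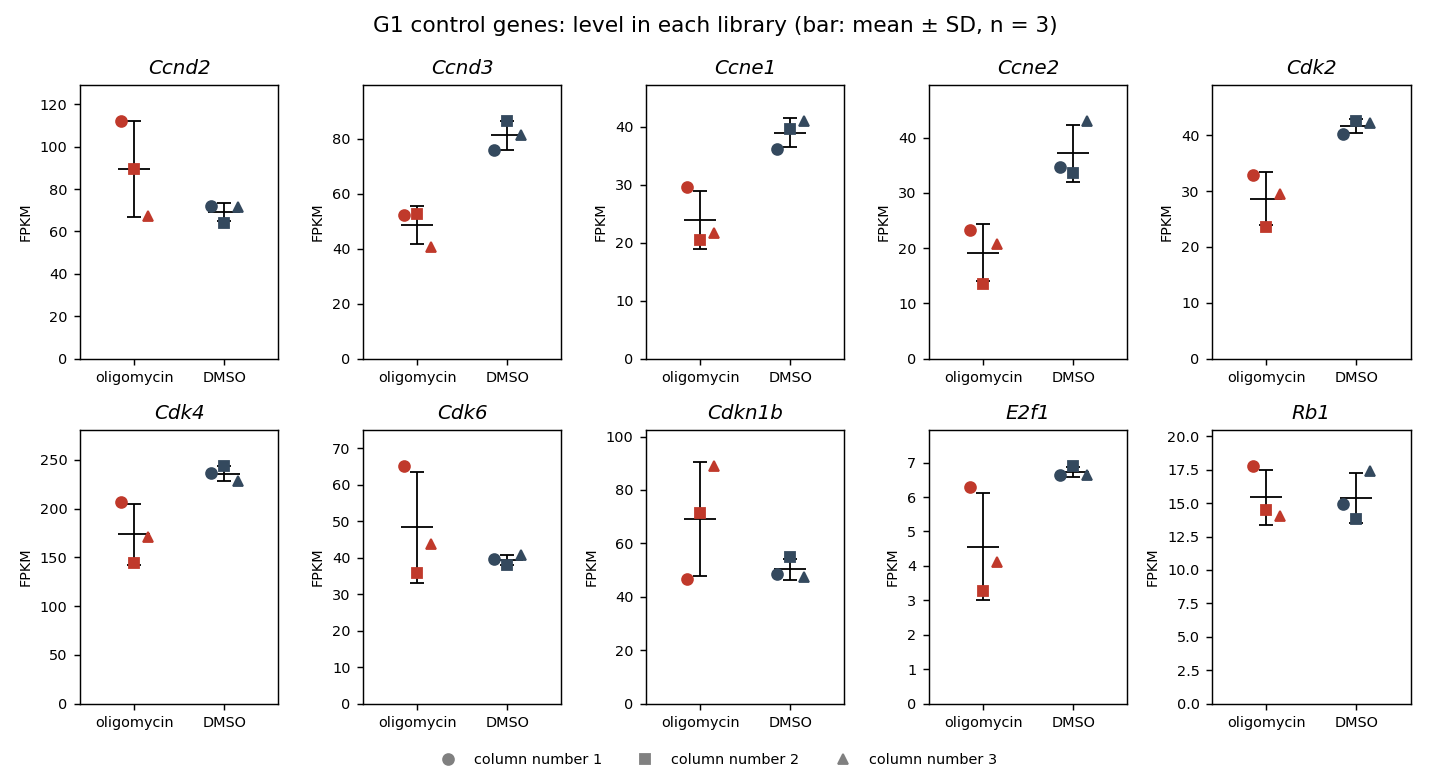
FPKM of each of the 10 genes in the 3 oligomycin libraries (red, left) and the 3 DMSO libraries (dark, right), each panel with its own axis from 0; symbols give the column number, horizontal bars the mean and whiskers the SD. The red and dark symbols do not overlap for Ccnd3, Ccne1, Ccne2, Cdk2, Cdk4 and E2f1. The SD was larger with oligomycin than with DMSO for every gene except Ccne2 (5.11 against 5.16 FPKM).

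Promoter sequences of RefSeq (GRCm38.p6) were available for 7 of the 10 genes, and the 250 bases before the annotated start are shown for Ccnd3 and Cdk2, which fell, and for Cdk4, the most abundant transcript. Capitals mark matches, on either strand, to the E2F words TTTCCCGC, TTTCGCGC, TTTGCCGC and TTTGGCGC, to the E-box CACGTG that MYC and related factors bind, and to the forkhead word TGTTTAC. The words do not overlap each other. Shown 5′ to 3′ on the strand of the gene, these are the promoters at chr17:47504801-47505050 (plus strand), chr10:128705052-128705301 (minus strand) and chr10:127063285-127063534 (plus strand).
Ccnd3: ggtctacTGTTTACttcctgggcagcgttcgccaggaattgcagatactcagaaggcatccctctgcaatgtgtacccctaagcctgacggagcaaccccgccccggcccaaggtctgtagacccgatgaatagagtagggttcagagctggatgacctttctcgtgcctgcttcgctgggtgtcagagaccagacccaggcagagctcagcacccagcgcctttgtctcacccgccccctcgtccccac
Cdk2: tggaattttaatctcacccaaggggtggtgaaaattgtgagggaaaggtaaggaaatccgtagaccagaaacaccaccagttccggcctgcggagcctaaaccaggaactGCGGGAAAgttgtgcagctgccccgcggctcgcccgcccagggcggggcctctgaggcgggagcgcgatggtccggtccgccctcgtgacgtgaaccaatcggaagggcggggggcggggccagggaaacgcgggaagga
Cdk4: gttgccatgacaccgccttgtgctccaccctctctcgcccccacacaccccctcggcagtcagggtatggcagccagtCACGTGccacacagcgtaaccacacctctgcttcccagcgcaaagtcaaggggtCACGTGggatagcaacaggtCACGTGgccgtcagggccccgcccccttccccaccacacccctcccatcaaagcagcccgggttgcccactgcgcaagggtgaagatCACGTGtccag
The Cdk2 window holds 1 E2F match, as do 1.86% of the 32851 RefSeq promoter windows of that length. The Cdk4 window holds 4 E-boxes, which begin 172, 118, 98 and 11 bases before the start, and 6.02% of all windows hold at least 1. In the Ccnd3 window 1 forkhead word begins 243 bases before the start, and 3.17% of all windows hold that word. The windows of Ccne1, of Cdkn1b and of a further Ccnd3 start inside its row hold none of these letters, and that of Cdk6 holds 1 E-box. The E2f1 window lies wholly inside the E2f1 row, past the row's 5′ end, and its letters are therefore not read as bases before the start. Such matches describe letters and do not show binding. The promoters of Ccnd2, Ccne2 and Rb1 are not shown.

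Ccnd3 encodes cyclin D3, a D cyclin that developing and activated lymphocytes depend on. Its mRNA stood at 52.3, 52.6 and 40.5 FPKM with oligomycin, against 76.1, 86.6 and 81.3 FPKM with DMSO. All oligomycin libraries lay well below the DMSO libraries, and the gap between the groups exceeded the spread inside either. The mean fell to 48.5 ± 6.94 FPKM with oligomycin, against 81.3 ± 5.28 with DMSO, a log2 change of -0.74 (SE 0.14, limma adjusted p = 0.00488). Its row spans chromosome 17, 47505051 to 47611492 (GRCm38), and takes in Bysl, a ribosome assembly gene on the opposite strand that has a row of its own with the same locus. The annotated genes overlap by 361 bases, and the strand of the libraries is not given in the sources used here, so reads there cannot be assigned. Bysl was not called, at 20.5 ± 5.63 FPKM with oligomycin and 19.4 ± 1.71 with DMSO (adjusted p = 0.875).

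Ccnd2 encodes cyclin D2, the other D cyclin of this set, which growth signals induce early in T cell activation. Its levels were 112, 89.4 and 67.1 FPKM with oligomycin and 71.9, 64.1 and 71.5 FPKM with DMSO. Oligomycin libraries 1 and 2 lay above all DMSO libraries and library 3 lay among them. The log2 change was 0.34 (95% interval -0.07 to 0.75, adjusted p = 0.184) and did not pass the test, although it did without oligomycin replicate 3 (0.53, adjusted p = 0.0455). Without oligomycin replicate 1 it was 0.16 (adjusted p = 0.423). The row spans chromosome 6, 127125709 to 127212419, far beyond the annotated gene, and takes in the antisense gene 9330179D12Rik, which overlaps Ccnd2 by 2805 bases.

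The ratio of Ccnd2 to Ccnd3 mRNA did not overlap between the groups, while the ranges of their sum did. Ccnd1, a further D cyclin gene, had no row under that symbol. The sum of Ccnd2 and Ccnd3 was 165, 142 and 108 FPKM with oligomycin and 148, 151 and 153 FPKM with DMSO, with oligomycin libraries on both sides of the DMSO range. The ratio of Ccnd2 to Ccnd3 was 2.15, 1.70 and 1.66 with oligomycin and 0.946, 0.740 and 0.880 with DMSO. Ccnd2 was thus more abundant than Ccnd3 in each oligomycin library and less abundant than Ccnd3 in each DMSO library. The log2 ratio, with a pseudocount of 1, was higher by 1.08 with oligomycin, at 0.85 ± 0.21 with oligomycin and -0.23 ± 0.18 with DMSO (SD, n = 3 each). An exact 2-sided permutation test gave p = 0.10, the smallest that 3 against 3 libraries allow, and 0.125 after adjustment over the 5 ratios compared.

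Cdk4 was the most abundant of the 10 transcripts in both groups. It encodes a kinase partner of D cyclins, and its levels were 206, 144 and 171 FPKM with oligomycin and 236, 244 and 228 FPKM with DMSO. The groups did not overlap, and oligomycin library 1 came closest to the controls. The log2 change of -0.45 (SE 0.15, adjusted p = 0.0510) just missed the threshold, and passed it without oligomycin replicate 1 (-0.59, adjusted p = 0.0118). Its unadjusted 95% interval, with all libraries, ran from -0.80 to -0.11. Without oligomycin replicate 2 the log2 change was -0.33 (adjusted p = 0.127). The row lies on chromosome 10, 127063603 to 127067282, and its 3' end meets Tspan31 on the opposite strand.

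Cdk6 encodes the second D cyclin kinase, which is prominent in blood cells. It stood at 65.2, 35.9 and 43.8 FPKM with oligomycin and 39.6, 37.9 and 40.7 FPKM with DMSO. Library 1 stood far above the controls, library 2 below them and library 3 just above them. The log2 change of 0.24 (95% interval -0.20 to 0.69, adjusted p = 0.370) did not pass the test and was 0.01 without oligomycin replicate 1. Within each library Cdk6 reached 0.316, 0.249 and 0.257 of the Cdk4 level with oligomycin and 0.168, 0.155 and 0.179 with DMSO. This ratio did not overlap between the groups, and its log2 value was higher by 0.70 with oligomycin (exact permutation p = 0.10, adjusted p = 0.125 over 5 ratios). Summed, Cdk4 and Cdk6 gave 272, 179.8 and 215 FPKM with oligomycin and 276, 282 and 269 with DMSO, so library 1 lay inside the DMSO range. The Cdk6 row (chromosome 5, 3344312 to 3522225) takes in the antisense genes Gm17590 and Gm42435.

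Both E cyclins fell, and Ccne2 showed the largest fall of the set. Ccne2, which encodes cyclin E2, stood at 23.4, 13.5 and 20.7 FPKM with oligomycin, against 34.8, 33.7 and 43.1 FPKM with DMSO. Its highest oligomycin library lay below its lowest DMSO library. The mean fell to 19.2 ± 5.11 FPKM with oligomycin, against 37.2 ± 5.16 with DMSO, a log2 change of -0.94 (SE 0.20, adjusted p = 0.00904). Its row (chromosome 4, 11191354 to 11254259) takes in Ints8, a subunit gene of the Integrator complex on the opposite strand, over an overlap of 5622 bases between the annotated genes. Ints8 had a row of its own at 13.3 ± 1.93 FPKM with oligomycin and 16.7 ± 2.92 with DMSO and was not called (adjusted p = 0.182).

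Ccne1 encodes cyclin E1, which like cyclin E2 activates CDK2. Its levels were 29.6, 20.4 and 21.7 FPKM with oligomycin and 36.2, 39.7 and 41.1 FPKM with DMSO. Again the groups did not overlap. The log2 change was -0.70 (SE 0.15, adjusted p = 0.00993), and the row (chromosome 7, 38097984 to 38107490) overlaps no other annotated gene. The sum of both E cyclins was 52.9, 33.9 and 42.5 FPKM with oligomycin and 71.0, 73.4 and 84.2 FPKM with DMSO. Unlike the D cyclins, the E cyclins kept a ratio that overlapped between the groups. Ccne2 stood at 0.791, 0.661 and 0.954 of Ccne1 with oligomycin and at 0.959, 0.849 and 1.05 with DMSO (log2 difference -0.24, exact permutation p = 0.20).

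Cdk2, the kinase that E cyclins activate, stood at 32.9, 23.5 and 29.5 FPKM with oligomycin and 40.2, 42.6 and 42.2 FPKM with DMSO. The controls were tightly grouped and every oligomycin library lay below them. The mean fell to 28.6 ± 4.76 FPKM with oligomycin, against 41.7 ± 1.29 with DMSO, a log2 change of -0.54 (SE 0.14, adjusted p = 0.0194). The call was lost without any 1 of the DMSO libraries, with adjusted p of 0.05002, 0.0596 and 0.0683 without replicates 1, 2 and 3. The annotated gene (row on chromosome 10, 128697939 to 128705051) overlaps Pmel on the opposite strand by 837 bases.

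Cdkn1b, whose product p27 inhibits cyclin E-CDK2, stood at 46.7, 71.4 and 89.1 FPKM with oligomycin and 48.4, 54.9 and 47.5 FPKM with DMSO. Oligomycin libraries 2 and 3 lay above all controls and library 1 just below them. The log2 change of 0.41 (95% interval -0.08 to 0.89, adjusted p = 0.180) did not pass the test. Without oligomycin replicate 1 it was 0.66 (adjusted p = 0.0106), and without oligomycin replicate 3 it was 0.20 (adjusted p = 0.483). The ratio of Cdkn1b to Cdk2 was 1.42, 3.04 and 3.02 with oligomycin and 1.20, 1.29 and 1.13 with DMSO. Every oligomycin library had the higher ratio, with library 1 close to the controls and the others far above them. The Cdkn1b row lies on chromosome 6, 134920401 to 134925525. On the log2 scale the ratio was higher by 0.94 with oligomycin (exact permutation p = 0.10, adjusted p = 0.125 over 5 ratios).

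Rb1, which encodes the retinoblastoma protein, stood at 17.8, 14.5 and 14.0 FPKM with oligomycin and 14.9, 13.8 and 17.4 FPKM with DMSO. The libraries of both groups were interspersed, and the log2 change was 0.00 (95% interval -0.31 to 0.32, adjusted p = 0.991). Its row (chromosome 14, 73195502 to 73325791) shares its locus with Lpar6, a lysophosphatidic acid receptor gene on the opposite strand inside Rb1, and the annotated Rb1 also overlaps Rcbtb2 by 24171 bases. Lpar6 rose, at 11.5, 14.1 and 16.5 FPKM with oligomycin against 10.1, 6.80 and 7.60 FPKM with DMSO (log2 change 0.72, adjusted p = 0.0169). Its call did not survive the removal of DMSO replicate 2 (adjusted p = 0.0568), of DMSO replicate 3 (0.0602) or of oligomycin replicate 3 (0.0603).

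E2f1, an E2F factor that activates genes of DNA synthesis, was the least abundant of the 10 transcripts (chromosome 2, 154559639 to 154569852). It stood at 6.29, 3.27 and 4.11 FPKM with oligomycin and 6.65, 6.91 and 6.65 FPKM with DMSO. The groups did not overlap, but oligomycin library 1 lay just under the controls. The log2 change of -0.51 (SE 0.19, adjusted p = 0.0761) did not pass the test, and was -0.73 without oligomycin replicate 1 (adjusted p = 0.00924). Without oligomycin replicate 2 it was -0.34 (adjusted p = 0.179). Relative to Rb1, E2f1 reached 0.354, 0.226 and 0.293 with oligomycin and 0.445, 0.501 and 0.382 with DMSO. This ratio was lower in every oligomycin library than in any DMSO library, with a log2 difference of -0.52 (exact permutation p = 0.10, adjusted p = 0.125 over 5 ratios).

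**Figure D2:**
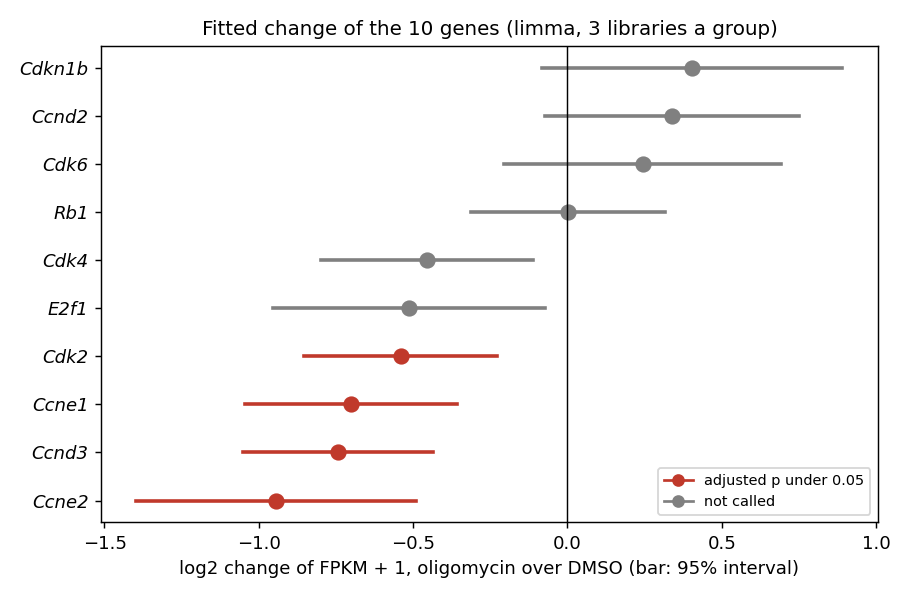
Fitted log2 change of FPKM + 1, oligomycin over DMSO, for each gene (point) with its unadjusted 95% interval (line), ordered from Cdkn1b at 0.41 at the top to Ccne2 at -0.94 at the bottom; red marks an adjusted p under 0.05. The 4 red genes lie left of 0, and the intervals of Cdkn1b, Ccnd2, Cdk6 and Rb1 include 0.

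**Figure D3:**
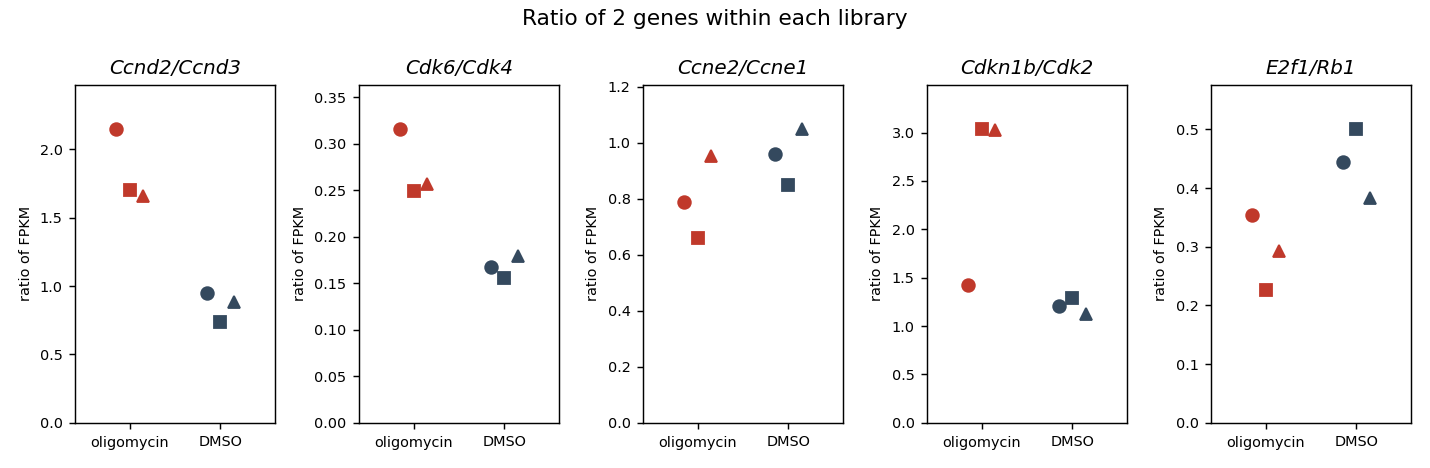
Ratio of the FPKM of 2 genes within each oligomycin library (red, left) and each DMSO library (dark, right); circles, squares and triangles are column numbers 1, 2 and 3. The groups do not overlap for Ccnd2/Ccnd3, Cdk6/Cdk4, Cdkn1b/Cdk2 and E2f1/Rb1, and overlap for Ccne2/Ccne1.

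The order of the levels differed between the groups. With oligomycin it ran Cdk4, Ccnd2, Cdkn1b, Ccnd3, Cdk6, Cdk2, Ccne1, Ccne2, Rb1 and E2f1, and with DMSO it ran Cdk4, Ccnd3, Ccnd2, Cdkn1b, Cdk2, Cdk6, Ccne1, Ccne2, Rb1 and E2f1. With oligomycin the libraries of neighbouring genes overlapped from Ccnd2 through Cdk6 and from Cdk2 through Rb1, so the order of neighbours inside these runs is not settled. Some genes further apart in a run did separate. The lowest oligomycin value of Ccnd2 (67.1 FPKM) lay above the highest of Ccnd3 (52.6) and of Cdk6 (65.2). Likewise the lowest values of Cdk2 (23.5) and Ccne1 (20.4) lay above the highest of Rb1 (17.8). With DMSO neighbours overlapped only from Cdk2 through Ccne2.

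The oligomycin libraries were not alike. Relative to the DMSO mean of each gene, the median of the 10 genes on the log2 scale was -0.15, -0.66 and -0.48 in oligomycin libraries 1, 2 and 3. The medians of E2F target genes of S phase entry followed the same order, at -0.34, -0.81 and -0.66. For genes of G2 and mitosis they were -1.73, -1.98 and -1.83, a narrower range. By these medians, in which rises and falls offset each other, library 1 was the one nearest to the controls in all of these lists. In library 1, 7 of the 10 genes lay below every DMSO library and 3 above (34.4% and 38.0% of all tested genes). The counts were 7 and 2 in library 2 (39.0% and 40.7%) and 6 and 2 in library 3 (42.0% and 34.5%). What sets library 1 apart was not tested.

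Of further genes that act on the G1 kinases, 3 fell, 1 rose and 7 of 11 tested were not called (median log2 change -0.36). That was 27.3% lower and 9.09% higher, beside 16.1% and 14% of all tested genes. Cks1b, which lets the ubiquitin ligase SCF-SKP2 recognise p27, fell to 45.1 ± 10.8 FPKM with oligomycin, against 128 ± 6.56 with DMSO (log2 change -1.51, adjusted p = 0.00063). Skp2, the receptor subunit of that ligase, fell to 3.71 ± 0.716 FPKM with oligomycin, against 6.34 ± 0.695 with DMSO (log2 change -0.65, adjusted p = 0.0158), a call lost without DMSO replicate 2 or 3 (adjusted p = 0.0526 and 0.0679). Cdkn2c, which encodes the CDK4 and CDK6 inhibitor p18, fell as well, to 7.30 ± 2.48 FPKM with oligomycin, against 19.7 ± 1.01 with DMSO (log2 change -1.37, adjusted p = 0.00266). Fbxw7, the receptor of a ligase that degrades cyclin E, rose to 22.9 ± 1.39 FPKM with oligomycin, against 16.5 ± 2.30 with DMSO (log2 change 0.46, adjusted p = 0.0292), but lost its call without oligomycin replicate 3 (adjusted p = 0.0923) and without either of DMSO replicates 1 and 3 (0.0995 and 0.0604).

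Among partners of the pocket proteins and E2F factors 8 of 17 fell and 1 rose (median log2 change -0.34). These shares were 47.1% and 5.88%, beside 16.1% and 14% of all tested genes. E2f2, a further activating E2F, fell to 7.47 ± 0.599 FPKM with oligomycin, against 17.4 ± 1.06 with DMSO (log2 change -1.12, adjusted p = 0.000325). E2f8, a repressing E2F, and Mybl2, which drives late cell cycle genes, fell with log2 changes of -1.24 and -1.37, and Lin54, the DNA-binding subunit of the DREAM complex, with one of -0.61. E2f6, a repressor that binds no pocket protein, rose by 0.44 (adjusted p = 0.0374), a call lost without any 1 library other than oligomycin replicate 2. Without DMSO replicate 3 the genes of this list that fell numbered 4.

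Of 27 E2F target genes of S phase entry 19 fell, 1 rose and 7 were not called, with a median log2 change of -0.60. That was 70.4% lower and 3.70% higher, beside 16.1% and 14% of all tested genes. Of this list 11 fell without DMSO replicate 3 and 12 without oligomycin replicate 3. Ccna2, the cyclin that takes CDK2 over from the E cyclins in S phase, fell to 42.5 ± 7.69 FPKM with oligomycin, against 168 ± 3.07 with DMSO (log2 change -1.97, adjusted p = 7.01e-05). Tk1, Rrm2 and Orc1, which serve nucleotide supply and origin licensing, fell with log2 changes of -1.57, -1.37 and -1.22. Ung, a uracil glycosylase of DNA repair, rose, unlike the others called in the list, with a log2 change of 0.60 (adjusted p = 0.0381), a call lost without any 1 library other than oligomycin replicate 2.

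All 20 tested genes of G2 and mitosis fell, with a median log2 change of -1.87, where 16.1% of all tested genes fell. Cdc20, which activates the anaphase-promoting complex, fell to 20.9 ± 0.410 FPKM with oligomycin, against 95.6 ± 7.12 with DMSO (log2 change -2.14, adjusted p = 2.64e-05). Aurka, a mitotic kinase gene, Nusap1, of a spindle protein, and Ube2c, of a ubiquitin-conjugating enzyme of mitosis, fell with log2 changes of -1.93, -1.89 and -2.55. For comparison, the fall of Ccne2, the largest among the 10 G1 genes, was -0.94 on the log2 scale, and the smallest fall in the mitotic list, that of Kif11, was -1.56. This difference between lists was not tested.

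Of 12 tested genes that mark or maintain quiescence 8 rose, 0 fell and 4 were not called, with a median log2 change of 0.67. The share that rose was 66.7%, beside 14% of all tested genes that rose and 16.1% that fell. Klf2, a factor of resting T cells, rose to 48.4 ± 19.7 FPKM with oligomycin, against 4.88 ± 2.02 with DMSO (log2 change 3.06, adjusted p = 0.000497). Bach2, Foxo1 and Btg2 rose by 0.81, 0.64 and 0.75. Of the antiproliferative genes Tob1, Ccng2 and Tob2, which were not called, the log2 changes were -0.39, -0.38 and -0.25. For Tob1 every oligomycin library lay below every DMSO library, as held for 24.3% of all tested genes. Its level was low, at 1.46 ± 0.0784 FPKM with oligomycin and 2.25 ± 0.439 with DMSO, near the filter of 1 FPKM. Ccng2 was called lower without oligomycin replicate 3 (adjusted p = 0.0422). Foxo1 encodes a factor that can induce Cdkn1b, which itself was not called.

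Of 12 genes of growth signals upstream of the D cyclins, 3 fell and 1 rose (median log2 change -0.18). That was 25% lower and 8.33% higher, beside 16.1% and 14% of all tested genes. Junb, Il2ra and Akt1, which encode an AP-1 factor, the high-affinity IL-2 receptor chain and a growth kinase, fell with log2 changes of -0.70, -0.81 and -0.65. Stat5a, which carries the IL-2 signal, rose by 0.49 (adjusted p = 0.0226). It was not called without oligomycin replicate 2 (adjusted p = 0.0546), DMSO replicate 1 (0.0899) or DMSO replicate 3 (0.0704). Myc, whose product binds E-boxes, was not called, at 49.7 ± 8.14 FPKM with oligomycin and 56.0 ± 8.19 with DMSO (log2 change -0.17, adjusted p = 0.435).

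**Figure D4:**
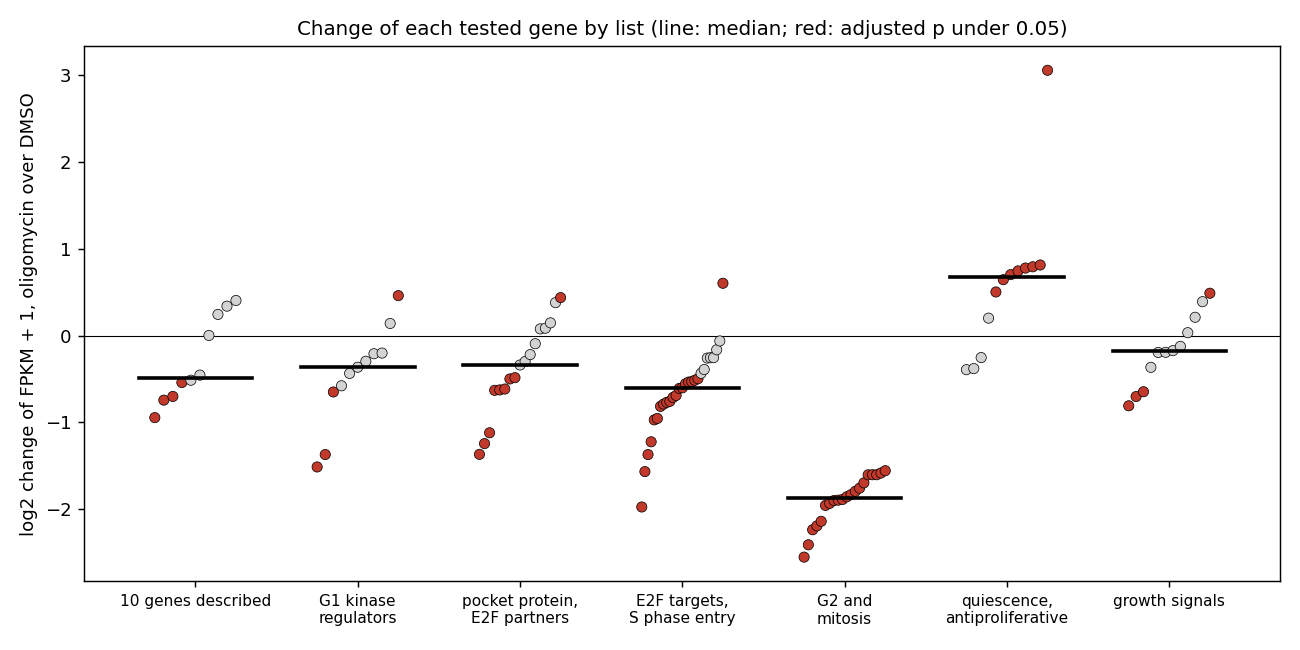
Log2 change of FPKM + 1, oligomycin over DMSO, of every tested gene (point) in the 10 genes described and in 6 further lists; thick lines are medians and red points have an adjusted p under 0.05. The medians are -0.48 for the 10 genes described, -0.36 for G1 kinase regulators, -0.34 for pocket protein and E2F partners, -0.60 for E2F targets, -1.87 for G2 and mitosis genes, 0.67 for quiescence genes and -0.18 for growth signals.

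The 3 genes whose pattern over the 6 libraries came closest to that of Ccne2, among 7706 single-gene rows with a mean of at least 5 FPKM, were Exo1, Ska2 and Ccl20. Their root mean square differences from Ccne2, in log2(FPKM + 1) centred on each gene, were 0.07, 0.09 and 0.10. Exo1 encodes an exonuclease of DNA repair, Ska2 a kinetochore protein and Ccl20 a chemokine that Th17 cells secrete. Like Ccne2, all of them had their lowest value in oligomycin library 2 and their highest in DMSO library 3. They were chosen for likeness over these same libraries, so this shared order is no separate result.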

How the data were processed

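RNA-seq of 3 oligomycin and 3 DMSO libraries was read from a table that the authors deposited as FPKM, with 1 value per gene and library. Per the submitters' processing notes, the tools were Cuffdiff 2.2.1.3, TopHat2 2.1.0, Cuffnorm 2.2.1.1 and Cufflinks 2.2.1.0, and the mouse build was GRCm38. The role of each tool, the gene models, filters, scaling and strand were not given in the sources read. Columns carry a group and a number from 1 to 3, while sample titles carry 17, 42 and 43, each once in either group, so columns were mapped to groups only.

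As FPKM are not counts, log2(FPKM + 1) was tested with limma 3.58.1 (R 4.3.3), using an intensity trend, the group as the only term and 2-sided p-values adjusted by the Benjamini-Hochberg method over the 9986 genes with at least 1 FPKM in at least 3 libraries. The procedure was tested on simulated data. All 10 genes passed this filter. Ratios of genes within a library were compared by an exact permutation test with scipy 1.17.1. No set test was run, so lists are described by counts and medians. The alternatives were other filters, pseudocounts and scalings, no trend, no shared loci, a block by column number, and leaving out each library. The genes and lists were chosen with earlier results of these data known. The genes named followed a rule (all 10 genes, the 4 smallest p-values of each list with genes called against its direction, and the 3 genes most like Ccne2), and Bysl, Ints8, Lpar6, Kif11, Myc, Tob1, Tob2, Ccng2 and the cell markers were added after their values were seen. Starts are printed counted from 1, which places the row starts of Ccnd3 and Cdkn1b on the RefSeq gene starts. Promoters are from RefSeq (GRCm38.p6), and overlaps between genes are from GENCODE M21.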

Additional observations from a re-analysis of the deposited data

How the results depend on the processing

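Of the 10 genes, 4 were called lower under every alternative that kept all libraries, except that 3 were called in the table without shared loci, which lacks Ccnd3, Ccne2 and Rb1, and 5 under a block by column number (Cdk4, adjusted p = 0.0467). Under quantile normalization 1 was called higher (Ccnd2, log2 change 0.50, adjusted p = 0.0498). Cdk4 was also called without shared loci (adjusted p = 0.0374). Leaving out 1 library at a time, 3 to 6 of the 10 were called lower and 0 to 1 higher, and 1769 to 3248 of all genes were called, 989 to 1861 lower and 780 to 1387 higher. In the same refits the G1 kinase regulators had 2 to 4 lower and 0 to 1 higher, the pocket protein and E2F partners 4 to 9 and 0 to 1, the E2F targets 11 to 21 and 0 to 1, the G2 and mitosis genes 20 and 0, the quiescence genes 0 to 1 lower and 7 to 8 higher, and the growth signals 3 lower and 0 to 2 higher. With 1 library left out the log2 change of Rb1 ran from -0.10 (without oligomycin replicate 1) to 0.0894, being -0.01 without DMSO replicate 1 and -0.07 without DMSO replicate 2. That of Bysl ran from -0.15 (without oligomycin replicate 1) to 0.23, being -0.03 without DMSO replicate 1. That of Cd8b1 ran from -0.0533 (without oligomycin replicate 1) to 0.114, being -0.0170 without DMSO replicate 1 and -0.0414 under quantile normalization. None was called. For growth signals the median turned to 0.00928 under quantile normalization, and 2 were called higher under equal sums without small RNA rows and 2 under the block. Of the G1 kinase regulators 0 were called higher without shared loci, and 5 lower under the block. Equal sums moved the median log2 change of all genes to 0.10. The cause of these changes was not tested. Under the replicate block 3532 genes were called, against 3013 without it. Same-numbered columns had correlations of 0.056, 0.247 and 0.132, against 0.117 between oligomycin 1 and DMSO 3. All other correlations between differently numbered columns were negative, from -0.216 to -0.0002. Numbers 2 and 3 gave the highest of all 9 correlations, but not every pair exceeded 0.1 and no source says what the numbers stand for, so a pairing was neither assumed nor settled. Of 43 other genes named, 30 kept direction and call under every alternative. Klrd1 was called under the block alone (adjusted p = 0.00758). Depth is unknown, so no counting error can be given.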
